A study of Mus musculus with 11 samples.

Results

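Ttyh1, Cwh43, Cspg4, Prss30 and Nrbp2 are 5 protein-coding mouse genes, of 18820 measured, whose mRNA differed in the colon between mice fed inulin and mice fed a control diet. They were selected on the limma adjusted p of that comparison, from the 17 genes (0.0903% of those tested) under 0.05, so the difference between the diets chose them and is described here without a test. Each was read by 1 probe set, a group of array probes summarised as 1 value. Ttyh1, Cwh43, Cspg4 and Prss30 were higher on inulin, by 1.36-fold to 1.43-fold, and Nrbp2 was lower, at 0.706 of its control level. Within each diet, where the choice of genes had not fixed the answer, Cwh43 was lower in mice with a higher mean of the distal colon homeobox genes. That relation was lost with their median. No pair of the 5 genes passed the threshold within the diets, where a moderate relation can be missed.

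The animals were male C57BL/6J mice of 12 weeks, all kept for 2 weeks on the low-fat control diet. They were then divided by body weight over 10 days of either that diet (n = 5) or the same diet with inulin in place of 10% by weight as corn starch (n = 6). Inulin is a plant fructan that mammalian enzymes do not digest and that colon bacteria ferment. After an overnight fast the mice received 1 g of their diet and were killed 4 h later, according to the protocol, while the series' design text mentions the fast alone. RNA came from scraped colon mucosa, 1 mouse per array, and the labels name no cage or batch.

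As background, the 5 genes encode proteins of different kinds. Ttyh1 encodes a tweety family membrane protein, best known from neural cells and debated as an anion channel. Cwh43 encodes a membrane protein that acts on the lipid part of glycosylphosphatidylinositol (GPI) anchors, which tether many proteins to the apical surface of epithelium, and its yeast counterpart puts ceramide into the anchor. Cspg4 encodes NG2, a chondroitin sulfate proteoglycan known as a marker of pericytes, the cells wrapped around small vessels, and of glial precursors. Prss30 encodes a serine protease of the distal intestinal epithelium. Nrbp2 encodes a pseudokinase, a protein with a kinase fold that is thought to lack catalysis, and is a relative of Nrbp1.

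In the mouse assembly GRCm38.p6, from RefSeq, Ttyh1 spans positions 4119530 to 4135407 of chromosome 7, and Cwh43 spans 73406051 to 73453435 of chromosome 5. Cspg4 spans 56865104 to 56899870 of chromosome 9, Prss30 spans 23972126 to 23980571 of chromosome 17, and Nrbp2 spans 76085515 to 76091690 of chromosome 15. No pair of the 5 shares a chromosome. RefSeq promoter windows were found for 4 of them, all but Nrbp2. The 250 bases before a transcript start are printed for 3 genes whose mRNA was higher on inulin, so that the letters before their starts can be set side by side. Capitals mark matches to the GC box, GGGCGG on the printed strand or CCGCCC where the match lies on the other strand. All 3 windows read 5′ to 3′ on the gene's plus strand, at chr7:4119280-4119529 for Ttyh1, chr5:73405828-73406077 for Cwh43 and chr9:56864854-56865103 for Cspg4, and that of Cwh43 reaches into the gene's annotated span.
Ttyh1: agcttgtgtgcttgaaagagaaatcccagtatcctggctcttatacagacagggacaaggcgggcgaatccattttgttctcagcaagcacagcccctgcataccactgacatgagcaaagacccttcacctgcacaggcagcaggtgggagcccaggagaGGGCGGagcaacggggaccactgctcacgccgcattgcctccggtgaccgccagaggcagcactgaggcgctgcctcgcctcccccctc
Cwh43: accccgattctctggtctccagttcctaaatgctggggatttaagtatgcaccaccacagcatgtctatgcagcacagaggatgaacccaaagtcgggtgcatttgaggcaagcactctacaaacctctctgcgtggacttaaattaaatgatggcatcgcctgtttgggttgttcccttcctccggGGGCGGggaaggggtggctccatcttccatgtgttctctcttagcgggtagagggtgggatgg
Cspg4: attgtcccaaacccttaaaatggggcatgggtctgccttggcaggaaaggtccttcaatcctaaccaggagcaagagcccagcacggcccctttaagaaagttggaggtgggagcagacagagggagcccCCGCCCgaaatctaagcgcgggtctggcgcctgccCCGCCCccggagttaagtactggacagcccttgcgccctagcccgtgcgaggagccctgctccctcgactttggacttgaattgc
The window of Prss30, chr17:23975231-23975480 on the minus strand, lies inside the gene's own annotated span and is given by its matches only. Ttyh1 held 1 GC box, 89 bases before its start, Cwh43 held 1 at 63 bases and Prss30 held 1 at 69 bases. Cspg4 held 2 on the other strand, at 120 and 85 bases. All 4 windows thus held the box, as did 32.7% of 32851 such windows of 27025 genes. The E-box, CANNTG, matched 2 times in Ttyh1, 2 times in Cwh43, 1 time in Prss30 and 0 times in Cspg4, and 66.2% of all windows hold it. The TATA box TATAAA (12.4% of windows), the nuclear receptor core AGGTCA (14.0%), that core repeated in the same direction after 1 base (0.0335%) and the caudal-type site TTTATN (37.2%) had 0 matches in the 4 windows. Both strands were searched. The GC content was 60.4% for Ttyh1, 52.8% for Cwh43, 60.4% for Cspg4 and 55.6% for Prss30, against a median of 52.4% over all windows. These matches describe letters and are not sites of binding.

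The arrays carried the RNA of colon epithelium. The mean log2 value over the 11 mice was 12.88 for Car1 and 11.65 for Aqp8, both of absorptive colonocytes, and 13.13 for the goblet cell mucin Muc2. Markers of other tissues also differed between mice. The mean of 9 fat cell markers ran from 5.71 to 6.40 in control mice and from 5.95 to 8.69 in inulin mice, highest in inulin mice 5, 4 and 2. The mean of 8 pancreatic acinar markers ran from 5.68 to 7.03 in control mice and from 5.64 to 10.40 in inulin mice, highest in inulin mouse 3. The mean of 5 distal colon homeobox genes, whose level follows position along the colon, ran from 6.94 to 7.97 in control mice and from 6.36 to 7.26 in inulin mice, and all 5 genes were lower on average on inulin.

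Ttyh1 had the smallest spread of the 5 genes in control mice. Its log2 array values were 5.44, 5.46, 5.43, 5.46 and 5.35 in control mice 1 to 5, and in inulin mice the lowest was 5.72, the median 5.97 and the highest 6.10. The groups did not overlap, and the gap between them was 0.26. The means were 5.43 ± 0.04 (SD, n = 5) and 5.94 ± 0.13 (SD, n = 6), a difference of 0.51 with a standard error of 0.064 and a fold of 1.43 (95% interval 1.29 to 1.57). Ttyh1 lay in the middle of the probe sets of each array, between the 49.2 and the 57.6 percentile, so its values lay mid-range. The limma adjusted p that chose it was 0.0085, in a comparison in which 0.0531% of genes were called higher and 1.01% of genes had higher values in every inulin mouse than in any control mouse.

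Cwh43 lay between the 73.7 and the 81.5 percentile of the probe sets of each array. Control mice 1 to 5 had log2 values of 7.81, 7.76, 7.66, 7.89 and 7.61, and inulin mice ran from 8.02 through a median of 8.21 to 8.37. The groups did not overlap, with the narrowest gap of the 5 genes, 0.13, between control mouse 4 and inulin mouse 6. The means were 7.75 ± 0.11 (SD, n = 5) and 8.21 ± 0.14 (SD, n = 6). The difference was 0.46 with a standard error of 0.076, or 1.38-fold (95% interval 1.23 to 1.54). Its limma adjusted p of 0.047 made it the last gene inside the threshold, behind the peroxidase gene Lpo at 0.043. Just outside were the Notch ligand gene Dll1, at -0.46 with an adjusted p of 0.053, and Abhd17b, which encodes a depalmitoylating enzyme, at 0.33 with an adjusted p of 0.053 in the same limma fit.

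Cspg4 had values close together on inulin. Control mice 1 to 5 stood at 4.78, 5.08, 4.81, 4.98 and 4.95 on the log2 scale, and inulin mice at 5.30 to 5.44 with a median of 5.38. The groups did not overlap and were 0.22 apart. The means were 4.92 ± 0.12 (SD, n = 5) and 5.38 ± 0.05 (SD, n = 6), a difference of 0.46 with a standard error of 0.060, or 1.38-fold (95% interval 1.26 to 1.50). Its limma adjusted p was 0.010. Its probe set lay between the 41.6 and the 50.3 percentile of each array, and no measured background was used here to place it.

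Prss30 lay near the top of each array, between the 96.3 and the 98.2 percentile of the probe sets. Control mice 1 to 5 had log2 values of 10.71, 10.88, 10.70, 10.86 and 10.96, and inulin mice ran from 11.13 through a median of 11.25 to 11.44. The highest control mouse was mouse 5 and the lowest inulin mouse was mouse 6, 0.17 apart. The means were 10.82 ± 0.11 (SD, n = 5) and 11.27 ± 0.11 (SD, n = 6), a difference of 0.45 with a standard error of 0.068, or 1.36-fold (95% interval 1.23 to 1.51). The limma adjusted p was 0.026. Such percentiles compare a gene's signal with the array's other probe sets and do not rank the mRNA amounts of different genes.

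Nrbp2 moved the other way. Control mice 1 to 5 had log2 values of 9.18, 9.14, 8.98, 9.10 and 9.18, whereas inulin mice ran from 8.42 through a median of 8.60 to 8.84. The lowest control mouse was mouse 3 and the highest inulin mouse was also mouse 3, with a gap of 0.14 and no overlap. The means were 9.12 ± 0.08 (SD, n = 5) and 8.61 ± 0.14 (SD, n = 6), so Nrbp2 fell by 0.50 with a standard error of 0.072. The limma adjusted p was 0.022, in a comparison in which 0.0372% of genes were called lower and 1.16% of genes had lower values in every inulin mouse. In scraped mucosa, a change in the share of cells that carry an mRNA and a change in the mRNA per cell cannot be told apart, for Nrbp2 and for the other 4 genes.

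**Figure D1:**
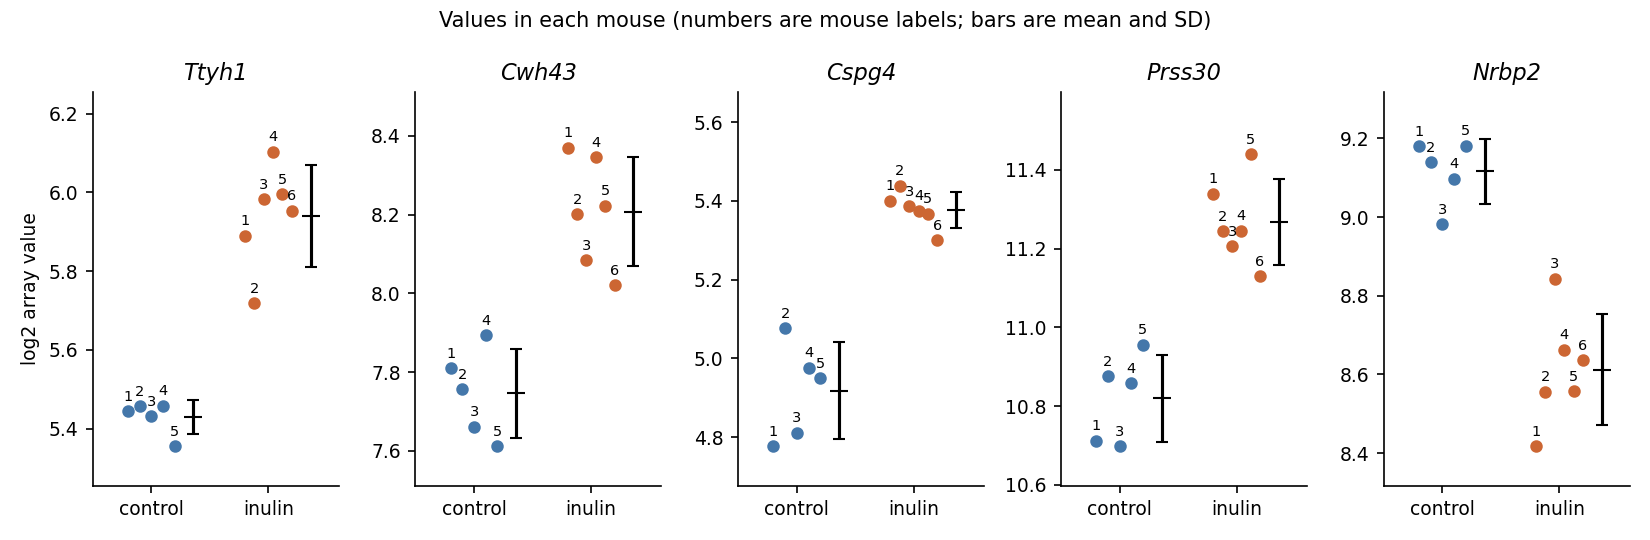
Log2 array value of the 5 genes in each of the 5 control and 6 inulin mice, with mouse numbers beside the points and the mean and SD as black bars, over the same height of scale in each panel. Ttyh1, Cwh43, Cspg4 and Prss30 stood higher in every inulin mouse than in any control mouse, and Nrbp2 stood lower in every inulin mouse.

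Leaving out single mice moved the differences little, while the call of some genes changed. The genes were chosen on this contrast in these mice, and their groups did not overlap. Leaving out 1 mouse could therefore not reverse a difference, and the values below are a description. Over the 11 fits that each leave out 1 mouse, the difference ran from 0.48 to 0.56 for Ttyh1, from 0.43 to 0.50 for Cwh43, from 0.42 to 0.50 for Cspg4, from 0.41 to 0.48 for Prss30 and from -0.55 to -0.46 for Nrbp2. Ttyh1 and Cspg4 passed the threshold in 11 of the 11 fits, Nrbp2 in 7, Prss30 in 5 and Cwh43 in 3. Between 2 and 5 of the genes passed in each fit, 2 without control mouse 1, control mouse 2 or inulin mouse 2. Without inulin mice 3, 4 and 5 together, which had the highest fat or pancreas values, 2 genes passed, Ttyh1 with an adjusted p of 0.046 and Nrbp2 with 0.025.

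The markers of other tissues were also entered as covariates, and the differences kept their sign. With fat and pancreas markers in the limma fit, the difference was 0.44 for Ttyh1, 0.40 for Cwh43, 0.45 for Cspg4, 0.37 for Prss30 and -0.54 for Nrbp2, and 0 of the 5 passed the threshold. With Hoxb13 and Hoxa13 as covariate, it was 0.50 for Ttyh1, 0.36 for Cwh43, 0.43 for Cspg4, 0.44 for Prss30 and -0.49 for Nrbp2. Ttyh1 (limma adjusted p 0.042) and Cspg4 (0.047) then passed, and Nrbp2 (0.052), Prss30 (0.061) and Cwh43 (0.076) did not. With the mean of all 5 distal homeobox genes as covariate, chosen after the data were seen, it was 0.46 for Ttyh1, 0.38 for Cspg4, 0.37 for Prss30 and -0.45 for Nrbp2, again with 0 of 5 past the threshold. That fit called 0 genes in all, with 1274 at an unadjusted p under 0.05. Cwh43 changed most, from 0.46 to 0.17.

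**Figure D2:**
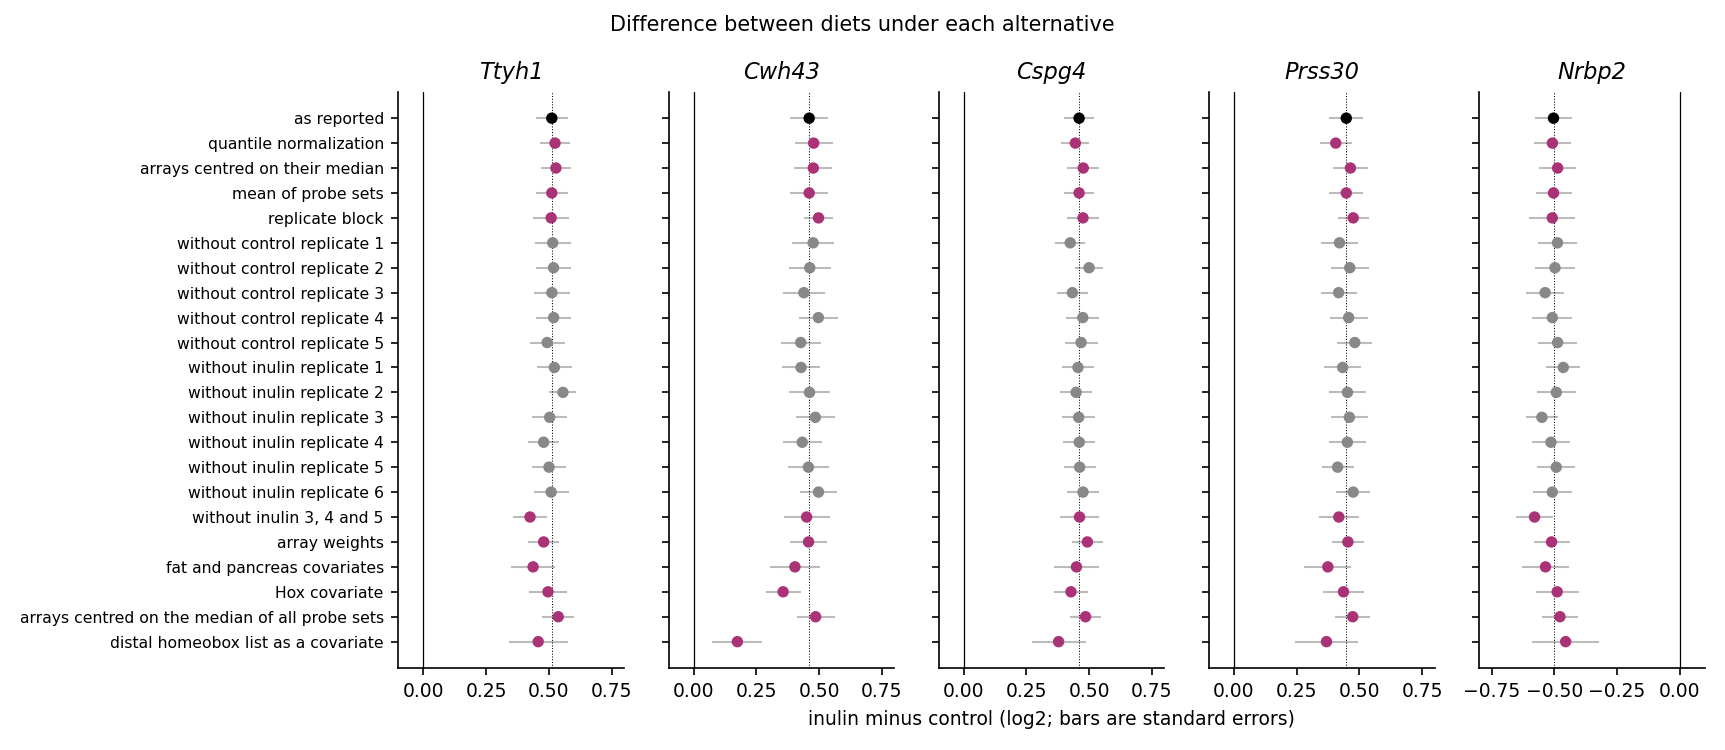
Inulin minus control on the log2 scale for the 5 genes under each way of processing or fitting, with standard errors as bars, the dotted line at the reported value, leave-one-out fits in grey and other alternatives in purple. Every value for Ttyh1, Cwh43, Cspg4 and Prss30 lay above 0 and every value for Nrbp2 below 0, and the value of Cwh43 with the homeobox genes as covariate, 0.17, was the farthest from its dotted line.

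The relatives and pathway partners of the 5 genes were then read from the same limma fit, over 167 measured genes in 7 lists that leave out the 5 genes and Fa2h. Of these, 0 passed the adjusted threshold, beside 0.0903% of all genes tested, and the smallest adjusted p was 0.118. The lack of calls is near that share, here and in each list below. At an unadjusted p under 0.05 there were 27, or 16.2% beside 13.5% of all genes tested, 19 higher and 8 lower. Over all genes tested, 6.34% were higher and 7.19% lower at that level. Their median difference was 0.02, beside 0.00 over all genes.

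For Ttyh1, the paralog Ttyh2 stood at 8.90 in control mice and 9.11 in inulin mice, a difference of 0.21 ± 0.077 (SE) with an adjusted p of 0.26, and Ttyh3 differed by 0.09 ± 0.10 (SE) with an adjusted p of 0.76. Among 22 tweety and anion channel genes other than Ttyh1, 13 were higher and 9 lower, with a median difference of 0.01. Ano6, an anoctamin that scrambles membrane lipids and carries anions, was at -0.22 ± 0.053 (SE) with the list's smallest adjusted p, 0.118. Lrrc8e, a subunit of the volume-regulated anion channel, was at 0.16 ± 0.065 (SE) with an adjusted p of 0.31. In the limma fit none of these passed, with 0.0903% of all genes called. At that share, the lack of a call among so few genes is not a result about the relatives.

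For Cwh43, 29 other genes of GPI anchor synthesis and remodelling were measured, 15 higher and 14 lower, with a median difference of 0.02. Pgap2, which acts in fatty acid remodelling of the anchor and binds Cwh43, was at -0.12 ± 0.066 (SE) with an adjusted p of 0.46, and Pgap3 was at 0.13 ± 0.067 (SE) with 0.40. Gpld1, a phospholipase that cleaves GPI anchors, was at -0.35 ± 0.10 (SE) with an adjusted p of 0.17. Dpm3 and Dpm2, subunits of the mannose donor enzyme, lay on opposite sides of 0 at -0.15 ± 0.047 and 0.14 ± 0.054 (SE). The yeast counterpart uses ceramide. The list of ceramide and sphingolipid synthesis, which also holds the ceramidase gene Acer1, had 26 measured genes apart from Fa2h, 17 higher and 9 lower, with a median of 0.06. It had 7 genes higher and 0 lower at an unadjusted limma p under 0.05, beside 6.34% and 7.19% of all genes. Of the 26, 0 passed the adjusted threshold, beside 0.0903% of all genes. The list was drawn up with earlier results of these data known. Sptssb, a small subunit of serine palmitoyltransferase, was at 0.59 ± 0.18 (SE) with an adjusted p of 0.20, the ceramidase gene Acer1 at 0.27 ± 0.072 (SE) with 0.15, and Sptlc2, a large subunit, at 0.13 ± 0.050 (SE) with 0.30.

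For Cspg4, the enzymes that build its sugar chain were read as a list. Of 21 chondroitin sulfate synthesis genes, 11 were higher and 10 lower, with a median of 0.01. Of them 0 passed the adjusted threshold, beside 0.0903% of all genes, which is not a result about these enzymes. Chst11, a sulfotransferase for the chain, was at 0.28 ± 0.11 (SE) with an adjusted p of 0.31. Of 21 other proteoglycan core genes, 17 were higher and 4 lower, with a median of 0.05 and 0 past the threshold. Dcn, the fibroblast proteoglycan decorin, was at 1.06 ± 0.35 (SE) with an adjusted p of 0.22, Hspg2 (perlecan, of basement membranes) at 0.29 ± 0.10 (SE) with 0.25, and Gpc4, a GPI-anchored glypican, at -0.33 ± 0.11 (SE) with 0.23. The neural proteoglycan gene Cspg5 was at 0.05 ± 0.058 (SE) with 0.76. Pericyte markers, a cell type that carries NG2, were higher in 9 of 10 on inulin, with a mean of 4.50 to 4.72 in control mice and of 4.69 to 4.97 in inulin mice. Of the 10, 0 were called, beside 0.0903% of all genes. The rise was not particular to pericytes, since fibroblast (9 of 9), macrophage (9 of 9), endothelial (7 of 8) and smooth muscle (7 of 8) markers were also mostly higher. T cell (3 of 7) and neutrophil (3 of 7) markers were not, and 9677 of all 18820 genes were higher. The part of pericytes in the difference of Cspg4 was not tested beyond the within-diet value given below.

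For Prss30, 25 other epithelial serine protease, inhibitor and substrate genes had 12 higher and 13 lower values and a median of 0.00. Prss27, another membrane-anchored serine protease, was at 0.27 ± 0.079 (SE) with an adjusted p of 0.18, Serpinb6a, an intracellular protease inhibitor, at 0.17 ± 0.049 (SE) with 0.17, and Prss8 (prostasin), which activates the epithelial sodium channel, at 0.03. Scnn1g, the gamma subunit of that channel, was at -1.06 ± 0.35 (SE) with an adjusted p of 0.22. For Nrbp2, the paralog Nrbp1 was at 0.04 ± 0.047 (SE) with an adjusted p of 0.78. Of 23 other pseudokinases and partners, 9 were higher and 14 lower, with a median of -0.02 and 0 at an unadjusted p under 0.05. The largest of the named ones were Wnk4, a kinase of salt transport, at -0.16 ± 0.084 (SE), Strada, an activator of the kinase Lkb1, at -0.11 ± 0.054 (SE), and Stradb at 0.13 ± 0.069 (SE).

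**Figure D3:**
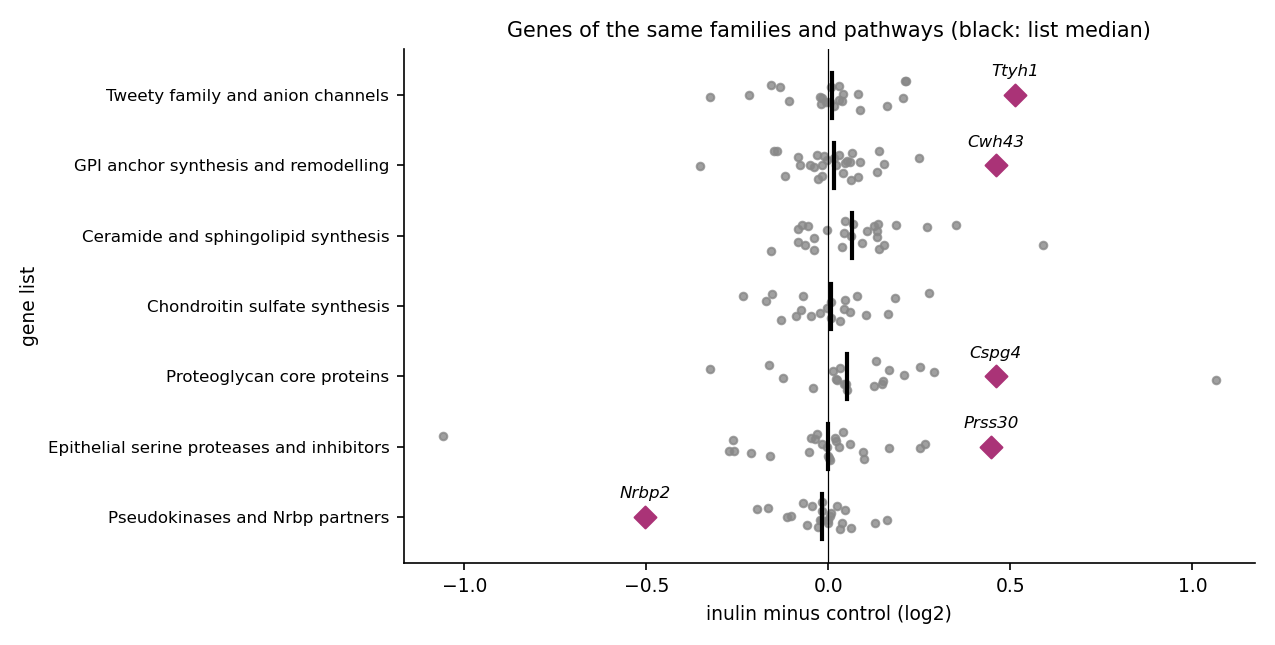
Inulin minus control on the log2 scale for genes of 7 family and pathway lists, with grey points for single genes, a black line for the list median and diamonds for the 5 genes. The list medians ran from -0.02 for pseudokinases to 0.06 for ceramide and sphingolipid synthesis. The 4 higher genes lay between 0.45 and 0.51 and Nrbp2 at -0.50. The 5 genes were chosen on this difference, so their distance from the medians was fixed by that choice. Single genes of the lists reached -1.06 and 1.06.

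Whether each gene moved with a cell type was asked within the diets, on each mouse's deviation from its diet mean, which leaves out the difference that chose the genes. Each gene was set against the mean log2 value of 23 marker lists over 11 mice, 115 pairs in all, with a two-sided exact permutation test over the 86400 reorderings of mice within diet. Of the 115 pairs, 1 passed an adjusted p of 0.05, and 11 (9.57%) had an unadjusted p under 0.05. By Spearman's rho 0 passed and 8 had an unadjusted p under 0.05. Prss30 had 7 of the 11, Cwh43 had 3, Cspg4 had 1, and Ttyh1 and Nrbp2 had 0.

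The pair that passed was Cwh43 with the distal colon homeobox genes, at r = -0.83 (exact permutation p = 0.00017, adjusted 0.020) and rho = -0.81 (exact permutation p = 0.0011, adjusted 0.065). The r was -0.90 among control mice and -0.81 among inulin mice, and -0.80 without control mouse 4 and inulin mouse 6, the 2 farthest from the median homeobox deviation. It stayed between -0.91 and -0.75 when each mouse was left out, yet the adjusted p passed in only 6 of those 11 fits, and rose to 0.17 without inulin mouse 4. It also missed without control mouse 3 (0.0998), inulin mouse 1 (0.072), inulin mouse 3 (0.064) and inulin mouse 6 (0.12). With the median of the list in place of its mean, r was -0.49 (exact permutation p = 0.14, adjusted 0.86), so the relation depends on how the 5 genes are combined. By gene the r of deviations was -0.75 for Hoxa13, -0.73 for Hoxd12, -0.64 for Hoxb13, -0.52 for Hoxd11 and -0.45 for Hoxd10, all of them genes that pattern the hindgut. In the diet comparison Hoxd11 stood at -1.45 and Hoxd10 at -1.50, both with a limma adjusted p of 0.055, and Hoxd12 at -0.69, Hoxb13 at -0.62 and Hoxa13 at -0.46 with adjusted p-values of 0.105 or more.

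Cwh43 also had the T cell list at r = 0.81 (exact permutation p = 0.0087, adjusted 0.28) and the fibroblast list at 0.66 (exact permutation p = 0.049, adjusted 0.51). Prss30 followed surface colonocyte markers at r = 0.77 (exact permutation p = 0.0097, adjusted 0.28) and rho 0.75, with 0.69 without the 2 mice farthest from the median, and macrophage markers at r = 0.73 (exact permutation p = 0.0014, adjusted 0.079), rho 0.77 and 0.66 without inulin mice 5 and 6. Its values with endothelial (0.68), mesothelium (0.65), fibroblast (0.64) and T cell (0.66) lists dropped to 0.30, 0.26, 0.24 and 0.36 without inulin mice 5 and 6, and with crypt stem markers went from -0.63 to -0.23 without control mouse 2 and inulin mouse 5. These relations of Prss30 thus rest on those mice, and inulin mouse 5 is one of the mice in each. The surface colonocyte list itself ran from 10.48 to 10.69 in control mice and from 10.74 to 11.03 in inulin mice, with 10 of 12 genes higher.

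Ttyh1, Cspg4 and Nrbp2 had no pair past the threshold, by r or by rho. For Cspg4 the pericyte list had r = 0.11 (exact permutation p = 0.75), and the tuft cell list 0.64 (exact permutation p = 0.027, adjusted 0.44), which was 0.45 without 2 mice. For Ttyh1 the enteric glia list had r = -0.07, and over all 23 lists its r ran from -0.49 to 0.46. For Nrbp2 the farthest was smooth muscle at -0.62 (exact permutation p = 0.066, adjusted 0.55). For fat markers r was 0.22 for Ttyh1, 0.48 for Cwh43, 0.15 for Cspg4, 0.46 for Prss30 and -0.15 for Nrbp2, and for acinar markers 0.46, -0.32, -0.12, -0.04 and 0.56 in the same order, none of them with an adjusted p under 0.76. With 11 mice a moderate relation can be missed, so these values do not show that the genes and lists are unrelated.

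**Figure D4:**
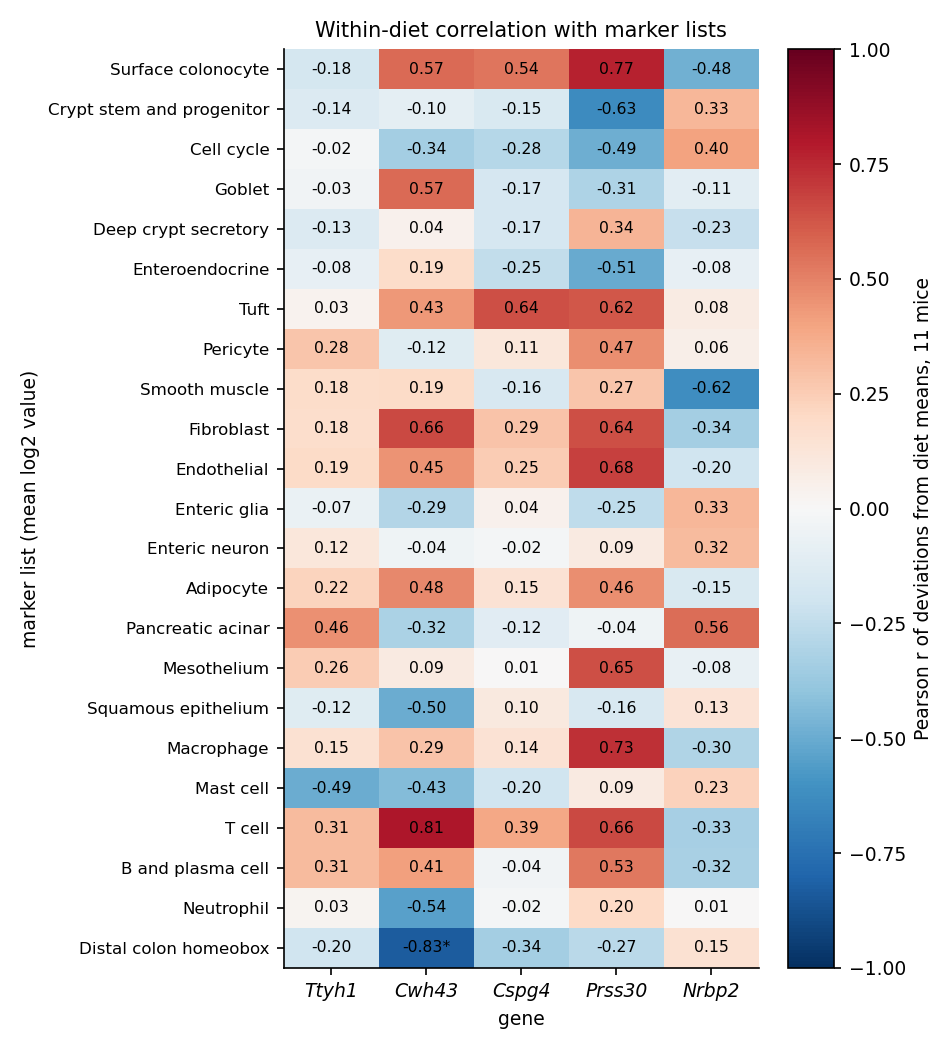
Pearson r between each gene and the mean of each of 23 marker lists, from deviations of 11 mice from their diet means, in red for positive and blue for negative values, with a star at an adjusted exact permutation p under 0.05. The star stands at Cwh43 with distal colon homeobox genes (-0.83), and the Ttyh1 column is pale, from -0.49 to 0.46.

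Among the 5 genes themselves, 0 of 10 pairs passed within the diets. The r of deviations ran from -0.40 to 0.59, and the largest was Cspg4 with Prss30 at 0.59 (exact permutation p = 0.075, adjusted 0.75, rho 0.51). With 11 mice a moderate relation can be missed here too. Over the 11 mice with the diet difference included, the same pairs had r of 0.82 to 0.94 in size. Those values include the diet difference on which the genes were selected. Setting the 5 genes against the other 12 called genes gave 60 pairs, 0 past the threshold by r, with 6 at an unadjusted p under 0.05 and a smallest adjusted p of 0.20. By rho, Cwh43 with Reg3g, an antibacterial lectin of the gut epithelium, had 0.94 (exact permutation p = 6.9e-05, adjusted 0.0042), with r = 0.83 (exact permutation p = 0.0034, adjusted 0.20) and r = 0.72 without control mouse 4 and inulin mouse 1. It was the only 1 of the 60 past the threshold by rho. Leaving out each mouse kept its rho between 0.83 and 0.96, while the adjusted p passed in 4 of the 11 cases, missing without control mice 2 to 5 and without inulin mice 1, 3 or 6, with 0.24 as the largest. Cspg4 with Gnat3, the taste G protein subunit of tuft cells, had r = 0.72 within the diets (adjusted p = 0.27), whereas over all 11 mice r was -0.79, since Gnat3 fell on inulin and Cspg4 rose.

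The genes most like each member over all 11 mice were named by the highest Pearson r, as a description that includes the diet difference. For Cwh43 they were Car12, a membrane carbonic anhydrase (0.98), the sulfatase gene Sulf2 (0.97) and Cystm1 (0.97), and the same 3 had r of 0.96, 0.89 and 0.87 on deviations from the diet means. Car12 stood at 8.92 ± 0.17 (SD, n = 5) in control mice and 9.52 ± 0.26 (SD, n = 6) in inulin mice. For Prss30 they were Anxa9, an annexin (0.96, and 0.88 on deviations), Tinagl1 (0.95) and Slc35f6 (0.95). For Cspg4 they were Pcyt1a, which encodes an enzyme of phosphatidylcholine synthesis (0.97, and 0.80 on deviations), Fa2h, a fatty acid hydroxylase of sphingolipids (0.94), and the macrophage gene Ms4a7 (0.93). For Ttyh1 they were Mal, a raft protein of the apical membrane (0.93), Phgr1 (0.93) and Fa2h (0.92), and for Nrbp2 they were Akap8 (0.96), Rai1 (0.93) and Ewsr1 (0.92).

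Ranking by deviations alone gave mostly other genes. Car12 stayed first for Cwh43, followed by Arhgap29 (0.94) and Zfp667 (0.93), whereas Ttyh1 had Lrrn1 (0.97), Clcn3 (0.93) and Wasf2 (0.93), Cspg4 had Kcnq3 (0.95), Rxrg (0.94) and Gpr135 (0.90), Prss30 had Igkv8-30 (0.96), Relt (0.95) and Cyp7b1 (0.95), and Nrbp2 had Arsg (0.95), Slc1a7 (0.92) and Stk11ip (0.92). Of the 18819 other genes, 44 had r above 0.9 with Cwh43 and 30 below -0.9 over 11 mice, the most of the 5 genes, while Ttyh1 had 4 and 7. The named genes are the top of a ranking over all other measured genes, without predicted genes and the like, and are given with no p.

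Of 184 marker genes of cell types and position, those named here were picked for high values, so the value of the whole list within the diets is given beside them. In each pair of values the first is over 11 mice with the diet difference and the second is on deviations. Over 11 mice Cwh43 was closest to Tmigd1, a surface colonocyte membrane protein, at r = 0.96 and 0.86, and had Car1, a colonocyte carbonic anhydrase, at 0.84 and 0.85. On deviations Guca2b of the same list was closest, at 0.61 and 0.88. The whole surface colonocyte list had r = 0.57 with Cwh43 (exact permutation p = 0.0995, adjusted 0.72). Prss30 had the colonocyte gene Dhrs9 at 0.88 and 0.54, the stem cell restraint Lrig1 at -0.88 and -0.72, and the replication gene Mcm2 at -0.67 and -0.90, beside its list values of 0.77, -0.63 and, for cell cycle genes, -0.49. Its highest positive values on deviations were with other cell types. These were the endothelial gene Egfl7 at 0.67 and 0.87, the fibroblast gene Col1a1 at 0.68 and 0.83, and the macrophage gene C1qa at 0.58 and 0.78. Their lists had 0.68, 0.64 and 0.73. Nrbp2 had the crypt genes Rnf43 at 0.83 and 0.81 and Ephb3 at 0.85 and 0.48, while the whole crypt stem and progenitor list had r = 0.33 (exact permutation p = 0.34, adjusted 0.91). It had Tmigd1 at -0.88 and -0.46, and the surface colonocyte list at -0.48.

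Ttyh1 had Guca2a, which encodes guanylin, at 0.88 and 0.44, but Aqp8, a water channel gene of the same surface colonocyte list, at -0.26 and -0.48. That whole list had r = -0.18 with Ttyh1 (exact permutation p = 0.69, adjusted 0.97). Ttyh1 had Gnat3 at -0.91 and -0.27, and the tuft cell list at 0.03. Cspg4 had Ms4a7 at 0.93 and 0.65, whereas the whole macrophage list had r = 0.14 with it (exact permutation p = 0.44, adjusted 0.91).

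The mice that show the Cwh43 relations can be read one by one. The homeobox mean was 7.63, 7.62, 7.71, 6.94 and 7.97 in control mice 1 to 5, lowest in mouse 4, where Cwh43 was the highest of the controls at 7.89, and highest in mouse 5, where Cwh43 was lowest at 7.61. In inulin mice the homeobox mean was lowest in mouse 4, at 6.36, where Cwh43 was 8.35, and highest in mouse 6, at 7.26, where Cwh43 was lowest at 8.02. Reg3g ran from 7.86 to 9.48 in control mice and from 10.80 to 12.01 in inulin mice. Its lowest mouse in each diet, control mouse 5 and inulin mouse 6, was also the lowest for Cwh43. Position along the colon and diet cannot be told apart for these mice, because the homeobox mean itself differed by -0.94 between inulin and control. The covariate fit above does not separate them either.

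**Figure D5:**
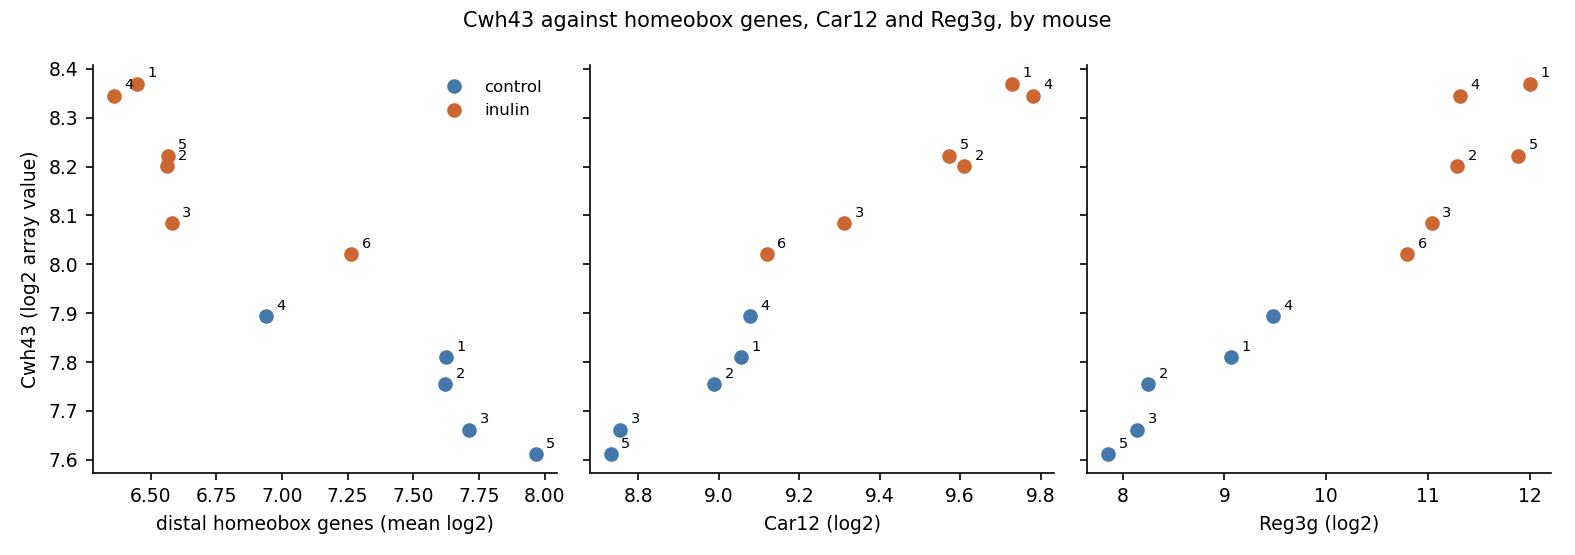
Log2 array value of Cwh43 against the mean of 5 distal colon homeobox genes, Car12 and Reg3g in each mouse, control mice in blue and inulin mice in orange, with mouse numbers. Within the diets, the r of deviations of Cwh43 was -0.83 with the homeobox mean, but -0.49 with the median of those genes. With Car12 that r was 0.96 and with Reg3g 0.83. Car12 was named as the top of a ranking by this r, so its value is no test. Cwh43 and Reg3g were both called on the diet difference, so their rise between the diets was fixed by that choice.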

How the data were processed

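Colon mucosa of 11 mice was measured on 1 array each. The table deposited by the authors holds log2 values that were normalised with RMA (robust multi-array average), as the submitters' processing notes state. RMA makes the arrays' distributions alike, which removes a shift shared by most genes. For its version, the definition of probe sets and the build, the entry is: not given in the sources used here. Scanner intensities were not used here. A log2 scale fits the range of values, 1.46 to 13.67.

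Of 35556 probe sets, the platform annotation gave 21218 a single symbol, 1881 several and did not list 12457. The Entrez numbers of 21185 were found in RefSeq's GRCm38.p6 table, with 0 changed symbols. Per gene the probe set with the highest mean was kept (18820 genes, 1386 with a choice). The rest were left out.

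Differences, inulin minus control, came from limma 3.58.1 in R 4.3.3 (lmFit and eBayes, no covariate), with Benjamini-Hochberg adjustment over 18820 genes at 0.05. A fold is 2 to the power of the log2 difference. Correlations were computed in Python 3.11.15 with exact permutation of mice within diet. Adjustment was over the family named in the text. The fat and pancreas covariates are marker gene means, the pathway counts are not set tests, and the steps were tested on simulated data. The number of arrays, 11, limits the precision.

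The 5 genes, the lists and the comparisons were chosen with earlier results of these data known. Named genes were the 5, their paralogs and up to 3 genes of smallest p per pathway list, the 3 most alike by either r, and those beside the threshold. Further names were chosen after their values were seen. Groups came from the labels. Same-numbered mice of the diets had correlations of deviations of 0.063, 0.076, 0.15, 0.22 and -0.10. Mice of different numbers were not set beside them, so whether the numbers pair the mice was not tested. The main fit used no pairing. Alternatives were another normalisation or centring, probe set means, array weights, other variance priors, a filter at the 40th percentile, thresholds of 0.01 and 0.1, covariates, the replicate block and leaving out mice.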

Additional observations from a re-analysis of the deposited data

Results flagged for a closer look

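In each diet, the highest or lowest mouse of each gene and list was set against its nearest neighbour, over 56 groups, and 8 lay apart by more than Dixon's 95% limit. Chance gives about 1 in 20. For the 5 genes this was 1 of 10 groups, Ttyh1 in control mouse 5, which had the lowest value at 5.35 with its nearest at 5.43 in a group of small spread. The other 7 were list means. Inulin mouse 5 was lowest for crypt stem and progenitor genes at 7.20 (nearest 7.73) and highest for mesothelium at 5.10 (4.55), macrophage at 5.74 (4.96) and B and plasma cell genes at 7.02 (5.82). Inulin mouse 6 was highest for distal colon homeobox genes at 7.26 (6.58). Control mouse 3 was highest for smooth muscle genes at 5.67 (5.25) and control mouse 4 for fat cell genes at 6.40 (5.89). Inulin mice 5 and 6 are the mice whose omission lowered most of the Prss30 correlations, and inulin mouse 6 also bears on that of Cwh43 with the homeobox genes.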

How the results depend on the processing

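All 105 values of the 5 genes, over 21 alternatives, kept their direction, which is a description only because this contrast chose the genes. All but 1 lay within 1 SD of the reported value. The exception was Cwh43 with the mean of the distal homeobox genes as covariate, at 0.17, and the cause was not tested. The number of genes called, 17 as reported, was 95 with the replicate number as a block, 33 without inulin mice 3, 4 and 5, 245 with array weights, 42 with a variance prior that follows intensity, 52 with the 40th percentile filter (fewer genes tested), 6 at 0.01, 130 at 0.1, 62 with centring on the median of all probe sets and 0 with the homeobox covariate (1274 at an unadjusted p under 0.05), the last 2 chosen after seeing the data. Leaving out 1 mouse gave 7 to 98, lowest without control mice 1 or 2 and highest without inulin mouse 5. Higher genes were 10 of the 17, 44 of 62 with that centring, 108 of 245 with array weights, 23 of 42 with the intensity prior, 26 of 52 with the filter, 13 of 33 without the 3 mice, 4 of 17 with the fat and pancreas covariates and 8 of 22 with Hoxb13 and Hoxa13 as covariate.

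With the replicate block, which was fitted on 10 mice because inulin mouse 6 has no partner, 4 of the 5 genes passed and Nrbp2 did not (adjusted p 0.060). The count of called pathway genes was 0 in 25 of 26 alternatives and 1 with that block, Scnn1g at -1.30 ± 0.21 (SE, adjusted p 0.048). On the same 10 mice without the block, 50 genes were called over all genes, beside 95 with it. Whether the numbers pair the mice was not tested. The count of within-diet pairs past the threshold, 1 as reported, was 0 to 2 on leaving out 1 mouse, 0 without inulin mice 3, 4 and 5, 2 at 0.1 and 0 with the list median. The second pair in those counts of 2 was Prss30 with macrophage genes.

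Array values have no counting depth. Cspg4 and Ttyh1 lay near the middle of the probe sets, and no background was measured here.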
